A study of Mus musculus with 6 samples.

Results

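The calcium release and reuptake machinery of heart muscle was examined through 10 genes, chosen by symbol: Cacna1c, Cacna2d1, Ryr2, Casq2, Trdn, Hrc, Jph2, Atp2a2, Pln and Slc8a1. They are 10 of the 17891 genes with a symbol in the gene tables, and each was listed in all 6 libraries. RNA was sequenced from the myocardium of 6-week-old mice on a C57BL/6 background, in 3 NS-DADm and 3 wild type (WT) samples. In NS-DADm mice a whole-body knock-in mutates the deacetylase activating domains (DADs) of NCOR and SMRT, the nuclear receptor corepressors that use these domains to switch on the histone deacetylase HDAC3. The WT samples share strain background and age and lack the mutations. The comparison asked how the knock-in changes the heart muscle transcriptome. Whether the samples come from separate animals is not stated in the labels. The p-values therefore reflect only how far these samples vary, which may be technical variation.

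In a heart muscle cell, an action potential opens L-type calcium channels of the cell membrane, and the calcium that enters opens ryanodine receptors of the sarcoplasmic reticulum, the internal calcium store. The released calcium drives contraction. The cell relaxes when the pump SERCA2 returns calcium to the store, under the brake of phospholamban, and the sodium-calcium exchanger carries the rest out of the cell. Proteins in the lumen of the store buffer calcium and tune the release channel, and junctophilin holds the store against the cell membrane.

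Total expected counts, the reads assigned to genes as the authors estimated them, were 12262523 to 12758311 in NS-DADm libraries and 10183792 to 11205221 in WT libraries, and the 10 genes took 2.81% to 3.09% of them in NS-DADm and 3.10% to 3.19% in WT. The 8 cardiomyocyte markers summed to 53220 to 61070 FPKM in NS-DADm libraries and 53930 to 61400 FPKM in WT libraries, so the tissue carried its defining markers. Of these 8, Mybpc3, a thick filament protein gene, fell (log2 fold change -0.26, SE 0.06, adjusted p = 0.0366, edgeR), to 759 ± 20 FPKM in NS-DADm, against 925 ± 12 FPKM in WT (SD, n = 3 each), and 7 did not pass. The 7 skeletal muscle markers together reached at most 4.66 FPKM in any library. The summed level of the 5 atrial markers, Myl7 and Myl4 among them, ran from 571 to 6542 FPKM in NS-DADm and from 269 to 4653 FPKM in WT. It was high in NS-DADm 1, NS-DADm 3 and WT 3 and low in NS-DADm 2, WT 1 and WT 2, where the atrial marker Bmp10 was not listed and was taken as 0. The 5 erythroid markers summed to 3394 to 6680 FPKM in NS-DADm and 6708 to 7970 FPKM in WT, and the 5 macrophage markers summed to 119 to 128 FPKM in NS-DADm and 87.3 to 95.9 FPKM in WT. Neither sum overlapped between the groups, though the erythroid sums nearly met. Singly, 1 of the 5 erythroid markers and all 5 macrophage markers did not overlap in FPKM, against 23.4% of all tested genes. The test was passed by 0 erythroid markers and by 2 macrophage markers, both higher, against 3.2% of all tested genes. Endothelial, fibroblast and smooth muscle markers overlapped in sum, and none of them passed. In bulk tissue, fewer cells of a type and less RNA per cell cannot be told apart. The part of these markers in the results below was not tested, except where values within the atrial subsets are given.

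Between NS-DADm and WT myocardium, RNA of the calcium store protein gene Hrc and of the calcium channel subunit gene Cacna2d1 fell, and RNA of the pump SERCA2 and of phospholamban had fold changes near 1. Of the 10 genes, 2 fell, 0 rose and 8 did not pass the test, against 3.2% of all 13130 tested genes called in either direction, 1.41% called lower and 1.79% called higher. At an unadjusted p under 0.05 there were 6 of the 10, where 18.1% of all tested genes passed. Counts were tested with the quasi-likelihood method of edgeR, p was adjusted over all tested genes (Benjamini-Hochberg), and a gene with an adjusted p under 0.05 is said to have risen or fallen. DESeq2's Wald test called 4 of the 10, adding a lower Ryr2 and a higher Jph2, where it called 3.82% of the 14053 genes to which it gave an adjusted p. Fold changes are NS-DADm over WT. Their median over the 10 genes was -0.17 on the log2 scale, and over all tested genes it was 0.00 (-0.003), with a negative fold change in 9 of the 10 and in 50.6% of all tested genes. Among the 9, Atp2a2, Pln and Casq2 changed sign under some alternatives. The FPKM ranges of the groups did not overlap for 6 of the 10, against 23.4% of all tested genes. Of these 6, 5 were lower in NS-DADm, where 14.5% of all tested genes were.

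**Figure D1:**
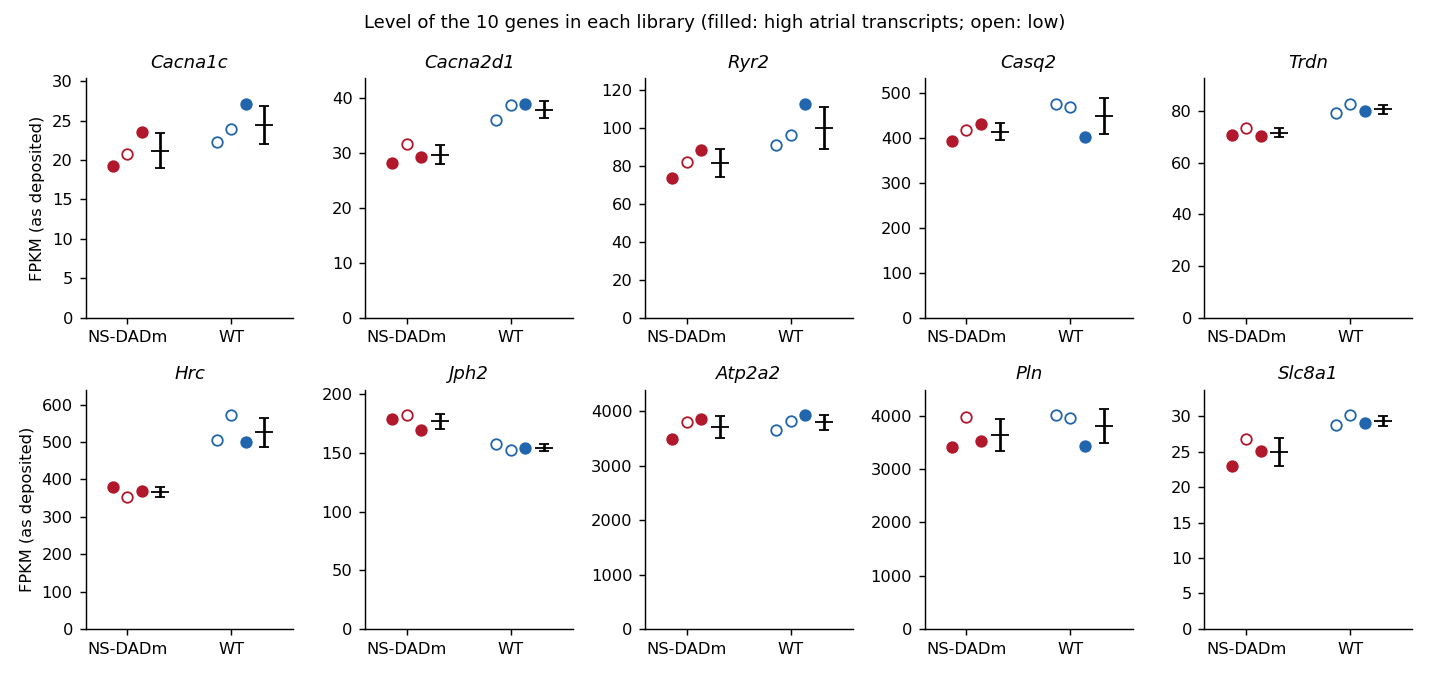
FPKM of each of the 10 genes (y axis, from 0) in the 3 NS-DADm (red) and 3 WT (blue) libraries, 1 point per library, with the mean and SD in black. Filled points are libraries with high atrial transcripts and open points those with low. Hrc, Cacna2d1, Ryr2, Trdn and Slc8a1 were lower in every NS-DADm library than in every WT library, Jph2 was higher, and the points of the other 4 genes overlap.

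Levels of the genes per length spanned a wide range in both groups. FPKM, the count scaled by transcript length and by the library's mapped fragments, allows genes to be ordered within a library. Atp2a2 and Pln were the most abundant and ranked 12 and 13 among all genes by mean FPKM, with overlapping ranges in each group. Next came Casq2 and Hrc, then Jph2, Ryr2 and Trdn, then Cacna2d1, Slc8a1 and Cacna1c. Neighbours whose ranges overlapped were Ryr2 and Trdn, and Slc8a1 and Cacna1c, in NS-DADm libraries but not in WT libraries. Hrc and Casq2 stood in opposite order in the groups: Casq2 was the higher in each NS-DADm library, while Hrc was the higher in each WT library.

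The sequences just upstream of the genes that fell, Hrc and Cacna2d1, and of Jph2, the gene with the opposite sign, are shown because NCOR and SMRT act on promoters through nuclear receptors, whose core hexamer reads AGGTCA. RefSeq promoter records (GRCm38.p6) were found for 8 of the 10 genes, with none for Trdn and Atp2a2 used here. The 250 bases before the start of the first record of each gene are printed 5′ to 3′ in the direction of transcription. Capitals mark each match on either strand to AGGTCA or to CANNTG, the E-box bound by basic helix-loop-helix factors. These motifs do not overlap in the windows shown. Hrc lies at chr7:45335019-45335268 on the plus strand, Cacna2d1 at chr5:15934441-15934690 on the plus strand, and Jph2 at chr2:163397994-163398243 on the minus strand.
Hrc: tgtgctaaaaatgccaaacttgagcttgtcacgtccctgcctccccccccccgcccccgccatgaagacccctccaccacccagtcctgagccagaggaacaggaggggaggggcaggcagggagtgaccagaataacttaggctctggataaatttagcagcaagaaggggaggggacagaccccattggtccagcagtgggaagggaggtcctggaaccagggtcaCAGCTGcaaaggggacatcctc
Cacna2d1: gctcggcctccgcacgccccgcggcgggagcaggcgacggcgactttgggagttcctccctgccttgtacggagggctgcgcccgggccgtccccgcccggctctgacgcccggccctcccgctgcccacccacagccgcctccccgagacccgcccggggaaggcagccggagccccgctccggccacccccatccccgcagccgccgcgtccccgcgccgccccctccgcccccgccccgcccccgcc
Jph2: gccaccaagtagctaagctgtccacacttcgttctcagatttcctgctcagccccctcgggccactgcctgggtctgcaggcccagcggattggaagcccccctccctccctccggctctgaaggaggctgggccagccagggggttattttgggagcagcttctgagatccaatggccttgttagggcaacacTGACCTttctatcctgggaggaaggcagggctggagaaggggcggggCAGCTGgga
Of these 3 windows, Jph2 alone held the hexamer, which was present in 2 of the 8 genes' windows (Jph2 and Ryr2, whose fold changes had opposite signs) and in 13.8% of 27025 promoter windows of the same length. Hrc and Jph2 each held 1 E-box and Cacna2d1 held none, where 66.0% of all windows held at least 1. The Cacna2d1 window was 82.4% G and C, the Hrc window 59.6% and the Jph2 window 62.0%, against a median of 52.0% over all windows. A match is a description of the letters and not a bound site.

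The L-type channel supplies the trigger calcium. Cacna1c, which encodes its pore, had 19.3, 20.8 and 23.6 FPKM in NS-DADm 1, 2 and 3, against 22.3, 23.9 and 27.1 FPKM in WT 1, 2 and 3. The groups overlapped, and the log2 fold change of -0.18 (SE 0.09) did not pass (adjusted p = 0.319, edgeR). Cacna2d1 encodes the α2δ subunit, which helps to bring the channel to the membrane. It had 28.1, 31.6 and 29.3 FPKM in NS-DADm 1, 2 and 3, against 36.1, 38.8 and 38.9 FPKM in WT 1, 2 and 3. All NS-DADm libraries lay below all WT libraries, and Cacna2d1 fell by 0.33 on the log2 scale (SE 0.07, adjusted p = 0.034, edgeR). Means were 29.7 ± 1.8 FPKM in NS-DADm and 37.9 ± 1.6 FPKM in WT (SD, n = 3 each). Cacna2d1 lost its call without NS-DADm 1, NS-DADm 3, WT 1, WT 2 or WT 3, with adjusted p up to 0.147, and kept it without NS-DADm 2 (adjusted p = 0.0304). Within the libraries of low atrial transcripts its difference in mean log2 CPM (the count scaled to library size), NS-DADm minus WT, was -0.20. Within those of high atrial transcripts it was -0.42. Each subset has 1 library in 1 of the groups, and Cacna2d1 was not called in an edgeR fit of either subset.

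The release unit of the store comprises the ryanodine receptor and the proteins bound to it in the lumen. Ryr2, the release channel itself, had 73.6, 81.9 and 88.5 FPKM in NS-DADm 1, 2 and 3, against 91.1, 96.3 and 112 FPKM in WT 1, 2 and 3. The groups did not overlap, though NS-DADm 3 and WT 1 lay close together, and the log2 fold change of -0.28 (SE 0.09) did not pass (adjusted p = 0.142, edgeR, and 0.133 to 0.356 without single libraries). Trdn encodes triadin, which anchors calsequestrin to the channel. Its level was 70.8, 73.6 and 70.4 FPKM in NS-DADm 1, 2 and 3, against 79.4, 82.7 and 80.0 FPKM in WT 1, 2 and 3. The groups were narrow and apart, and the log2 fold change of -0.15 (SE 0.06) did not pass (adjusted p = 0.226, edgeR). Trdn was listed as a single transcript model, so its splice forms are not separated here. Within the libraries of low and of high atrial transcripts the differences in mean log2 CPM were -0.15 and -0.46 for Ryr2, and -0.10 and -0.16 for Trdn.

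Casq2 encodes calsequestrin, the main calcium buffer of the store in heart. It had 394, 418 and 431 FPKM in NS-DADm 1, 2 and 3, against 476, 470 and 404 FPKM in WT 1, 2 and 3, where WT 3 lay inside the NS-DADm range. The log2 fold change was -0.10 (SE 0.08, adjusted p = 0.574, edgeR), with a 95% interval of -0.27 to 0.08. Its difference in mean log2 CPM was -0.14 within the libraries of low atrial transcripts and 0.05 within those of high atrial transcripts, so its sign was not the same in both.

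Hrc encodes the histidine-rich calcium binding protein, a luminal protein of the store that binds both triadin and SERCA2. Its level was 379, 353 and 369 FPKM in NS-DADm 1, 2 and 3, against 506, 571 and 501 FPKM in WT 1, 2 and 3. Every NS-DADm library was lower than every WT library, by a gap wider than the spread within either group. Hrc fell by 0.50 on the log2 scale (SE 0.07, 95% interval -0.66 to -0.34, adjusted p = 0.00698, edgeR), which is a ratio of 0.709 of NS-DADm to WT. Hrc ranked 76 by p among the 13130 tested genes. It remained called without each of the 6 libraries in turn (adjusted p 0.00796 to 0.0372) and with the atrial score, the mean log2 level of 4 atrial genes, as a covariate (log2 fold change -0.46, adjusted p = 0.00682). Its difference in mean log2 CPM was -0.57 within the libraries of low atrial transcripts and -0.40 within those of high atrial transcripts, and in an edgeR fit of the 3 high libraries alone it was not called (adjusted p = 0.59). That fit has 2 NS-DADm libraries against 1 WT library and called 0 of 13600 genes (0%), with 1119 at an unadjusted p under 0.05, while the fit of the 3 low libraries, 1 NS-DADm against 2 WT, called 7.39% of 13240 genes, Hrc among them. Both assume that the lone library varies like the others.

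The levels of the luminal proteins were also set against each other. The FPKM ratio of Hrc to Casq2 was 0.962, 0.844 and 0.856 in NS-DADm 1, 2 and 3, against 1.06, 1.21 and 1.24 in WT 1, 2 and 3. All NS-DADm ratios were below 1 and all WT ratios above it, a description with no test. The ratio of Casq2 to Ryr2 was 5.36, 5.10 and 4.87 in NS-DADm 1, 2 and 3, against 5.23, 4.89 and 3.59 in WT 1, 2 and 3, and these overlapped.

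**Figure D2:**
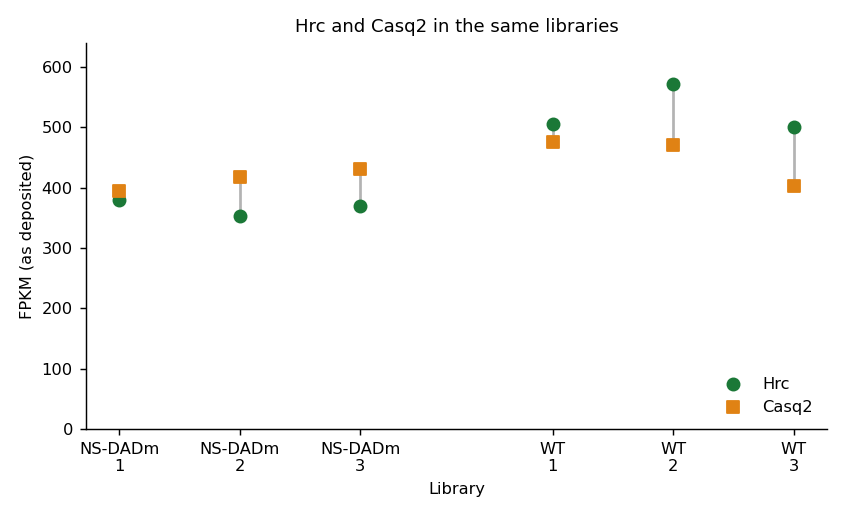
FPKM of Hrc (green circles) and Casq2 (orange squares) on the y axis, from 0, in each of the 3 NS-DADm and 3 WT libraries (x axis), joined by a grey line within a library. Casq2 is the upper of the pair in the NS-DADm libraries and Hrc in the WT libraries, where Hrc reaches 571 FPKM.

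Jph2 encodes junctophilin 2, which spans the gap between the store and the cell membrane and sets the distance between channel and receptor. In the main edgeR fit, with group alone in the model, it was the single gene of the 10 with a positive fold change. Its level was 179, 182 and 170 FPKM in NS-DADm 1, 2 and 3, against 157, 152 and 154 FPKM in WT 1, 2 and 3. Every NS-DADm library was higher than every WT library. The log2 fold change of 0.22 (SE 0.06, 95% interval 0.08 to 0.36) missed the threshold (adjusted p = 0.0925, edgeR), and without single libraries the adjusted p ran from 0.101 to 0.264. Its difference in mean log2 CPM was 0.27 within the libraries of low atrial transcripts and 0.20 within those of high atrial transcripts.

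Reuptake into the store rests on Atp2a2, the gene of SERCA2, and Pln, the gene of its inhibitor phospholamban. Atp2a2 had 3484, 3796 and 3861 FPKM in NS-DADm 1, 2 and 3, against 3658, 3818 and 3926 FPKM in WT 1, 2 and 3. The ranges overlapped over most of their length, with a log2 fold change of -0.01 (SE 0.07, adjusted p = 0.953, edgeR) and a 95% interval for the ratio of 0.897 to 1.10. Its sign turned without NS-DADm 1, WT 2 or WT 3 (log2 fold change 0.034, 0.001 and 0.004). It also turned within the libraries of low atrial transcripts (0.061). Pln had 3409, 3974 and 3533 FPKM in NS-DADm 1, 2 and 3, against 4007, 3966 and 3432 FPKM in WT 1, 2 and 3. The lower values were in the 3 libraries with high atrial transcripts, in both groups. The log2 fold change of Pln was -0.04 (SE 0.09, adjusted p = 0.865, edgeR), and the ratio's 95% interval was 0.85 to 1.11. With the atrial score as a covariate the log2 fold change of Pln was 0.06, so its sign depended on that choice. The FPKM ratio of Pln to Atp2a2 was 0.98 ± 0.066 in NS-DADm and 1.00 ± 0.12 in WT (SD, n = 3 each).

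Slc8a1 encodes NCX1, the exchanger that removes calcium from the cell. It had 23.0, 26.8 and 25.2 FPKM in NS-DADm 1, 2 and 3, against 28.8, 30.1 and 29.0 FPKM in WT 1, 2 and 3. The groups did not overlap, and the log2 fold change of -0.21 (SE 0.07) did not pass (adjusted p = 0.171, edgeR). The difference in mean log2 CPM of Slc8a1 was -0.10 within the libraries of low atrial transcripts and -0.25 within those of high atrial transcripts.

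**Figure D3:**
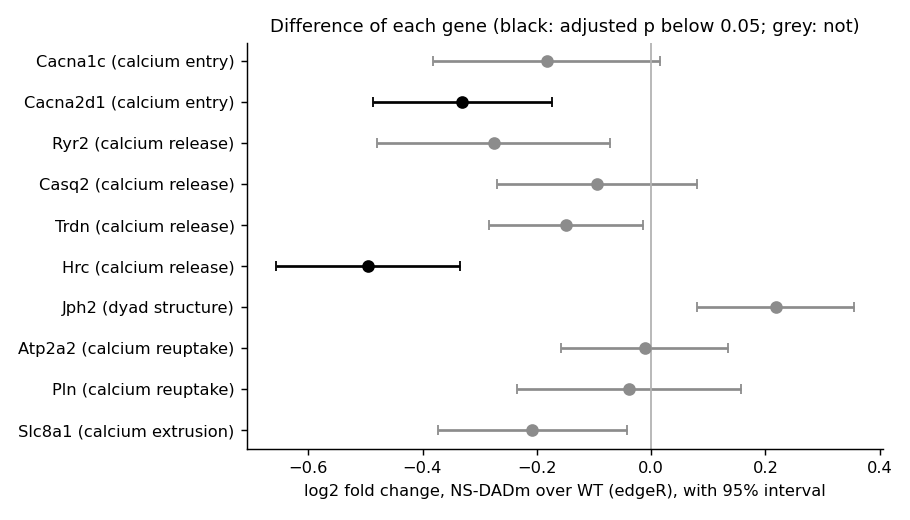
Log2 fold change of each gene, NS-DADm over WT (x axis), from edgeR with its 95% interval (n = 3 libraries a group), with genes down the page by role. Black marks the genes with an adjusted p under 0.05, Hrc at -0.50 and Cacna2d1 at -0.33. The intervals of Cacna1c, Casq2, Atp2a2 and Pln include 0.

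The transcript tables listed 28 transcript models of the 10 genes, of which 26 were tested. None of them was called by edgeR's quasi-likelihood test, against 0.0972% of 17498 transcripts tested (0.0457% lower and 0.0514% higher), while 7 had an unadjusted p under 0.05, against 11.2% of all transcripts tested. DESeq2's Wald test called 2, the single Hrc model and the leading Jph2 model, against 4.22% of the 20680 transcripts to which it gave an adjusted p. Atp2a2 makes SERCA2a, the form of heart muscle, and SERCA2b, the form of most other tissues, which differ at their carboxyl end. Matched to GENCODE release M21, the 4353-base model codes for 998 amino acids, the SERCA2a form, and the 4565-base model for 1044, the SERCA2b form. The 5763-base model, which RefSeq lists as a non-coding RNA, also matched a GENCODE model that codes for 1044. The SERCA2a model held 94.0%, 94.2% and 94.9% of the Atp2a2 counts in NS-DADm 1, 2 and 3, against 95.02%, 94.9% and 94.9% in WT 1, 2 and 3. The difference of -0.56 percentage points gave p = 0.3 in a two-sided exact permutation test (adjusted p = 0.45 over 6 genes), where 3 against 3 samples cannot go below 0.1. The 4565-base model had 40.0, 69.9 and 69.8 FPKM in NS-DADm 1, 2 and 3, against 20.4, 5.45 and 48.5 FPKM in WT 1, 2 and 3. These overlapped at NS-DADm 1 and WT 3, and the log2 fold change of 1.30 (SE 0.73) did not pass (adjusted p = 0.598, edgeR over transcripts). Without single libraries this value ran from 0.83 (without WT 2) to 2.24 (without WT 3). The 5763-base model was the more abundant, with 128, 113 and 94.1 FPKM in NS-DADm 1, 2 and 3, against 122, 145 and 115 FPKM in WT 1, 2 and 3. Its fold change had the opposite sign (log2 -0.17, SE 0.15, adjusted p = 0.775, edgeR over transcripts). Summed, these models had 168, 183 and 163.9 FPKM in NS-DADm 1, 2 and 3, against 143, 151 and 163.5 FPKM in WT 1, 2 and 3, so the sums of NS-DADm 3 and WT 3 nearly met. The counts of these long models are the authors' split of shared reads, so the level of the SERCA2b form is uncertain.

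Shares of the leading model were compared for the other genes with several models. For Pln the 2353-base model held 97.7% ± 0.21 of counts in NS-DADm and 97.4% ± 0.30 in WT (SD, n = 3 each). For Jph2 the 4235-base model held 98.7% ± 0.53 in NS-DADm and 98.4% ± 1.2 in WT, and for Slc8a1 the 18609-base model held 97.4% ± 1.4 in NS-DADm and 98.9% ± 0.55 in WT. The large channel genes were split among more models: of 8 Cacna1c models the leading one held 51.3% ± 4.2 in NS-DADm and 55.9% ± 3.2 in WT, and of 5 Cacna2d1 models the leading one held 32.8% ± 9.1 in NS-DADm and 43.6% ± 13.8 in WT. Without single libraries the difference ran from -17.5 percentage points (without WT 2) to -3.74 (without WT 3) for Cacna2d1, and from -6.06 (without WT 2) to -2.15 (without NS-DADm 2) for Cacna1c. The exact permutation p for these 5 genes ran from 0.2 to 0.9. The models of a gene share most of their bases, so their counts are the authors' estimates and carry a splitting error that the test does not see.

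The rest of the calcium-handling pathway, a list of 69 further genes, showed 1 called gene. Of the 58 that were tested, Cacna1g fell, 0 rose and 57 did not pass, against 3.2% called among all tested genes. At an unadjusted p under 0.05 there were 11, where 18.1% of all tested genes passed. DESeq2's test called 2, where it called 3.82% of the genes to which it gave an adjusted p. Cacna1g, a T-type calcium channel of pacemaker and conduction cells, had 1.6, 1.24 and 1.79 FPKM in NS-DADm 1, 2 and 3, against 2.47, 2.74 and 3.44 FPKM in WT 1, 2 and 3. All NS-DADm libraries were lower (log2 fold change -0.88, SE 0.15, adjusted p = 0.0138, edgeR). Its adjusted p was 0.0522 without NS-DADm 1, 0.0568 without WT 2, and 0.0546 and 0.0584 with limma on log2(FPKM + 1) and log2(FPKM + 0.1). The median log2 fold change over the 58 genes was 0.06, with 23 negative and 35 positive.

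Among further genes of calcium entry, 12 were tested, and the most abundant were Rrad and Cacnb2. Rrad, a small GTP-binding protein that restrains the L-type channel, stood at 100 ± 14 FPKM in NS-DADm and 83.8 ± 19 FPKM in WT (log2 fold change 0.28, SE 0.15, adjusted p = 0.361, edgeR). Cacnb2, the main β subunit of the cardiac channel, stood at 25.3 ± 2.2 FPKM in NS-DADm and 26.9 ± 2.6 FPKM in WT, with overlapping libraries.

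Among further genes of calcium release, 14 were tested and none was called. S100a1, a calcium sensor that binds the ryanodine receptor and SERCA2, was the most abundant. It had 960, 888 and 830 FPKM in NS-DADm 1, 2 and 3, against 1170, 1235 and 1059 FPKM in WT 1, 2 and 3. Its groups did not overlap, and it missed the threshold narrowly (log2 fold change -0.34, SE 0.08, adjusted p = 0.0515, edgeR). It was called lower in 5 of 14 alternatives, among them DESeq2's test (adjusted p = 0.00175) and edgeR without WT 3 (adjusted p = 0.0332). Without the other single libraries the adjusted p ran from 0.071 to 0.203 (edgeR). With the atrial score as a covariate it was 0.0778 (edgeR). Tmem38a, a potassium channel of the store that balances charge during release, stood at 271 ± 16 FPKM in NS-DADm and 273 ± 10.1 FPKM in WT.

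The further genes of the dyad, the contact between store and membrane, numbered 5 tested, with none called. Speg, a kinase of the junctional membrane, stood at 42.3 ± 0.49 FPKM in NS-DADm and 37.0 ± 2.2 FPKM in WT, and Cav3, the muscle caveolin, at 43.6 ± 0.69 FPKM in NS-DADm and 49.5 ± 2.8 FPKM in WT. Neither overlapped between the groups and neither passed (adjusted p = 0.207 for Speg and 0.296 for Cav3, edgeR). Of 8 further genes of reuptake, the most abundant, Hspb6, a small heat shock protein linked to phospholamban dephosphorylation, stood at 1166 ± 22 FPKM in NS-DADm and 1195 ± 110 FPKM in WT. Calr, calreticulin, stood at 224 ± 18 FPKM in NS-DADm and 201 ± 6.8 FPKM in WT. Sln, sarcolipin, the atrial counterpart of phospholamban, is itself among the atrial markers that separate the libraries, and had 307, 34.3 and 440 FPKM in NS-DADm 1, 2 and 3, against 25.2, 5.13 and 358 FPKM in WT 1, 2 and 3.

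Of 4 tested genes of extrusion, Fxyd1, phospholemman, a regulator of the sodium pump and of NCX1, stood at 677 ± 20 FPKM in NS-DADm and 712 ± 23 FPKM in WT, and the plasma membrane pump Atp2b1 at 11.2 ± 0.42 FPKM in NS-DADm and 11.9 ± 0.62 FPKM in WT. None of the 6 tested genes of store-operated entry passed, and their median log2 fold change was 0.09. Saraf, which limits this entry, stood at 179 ± 13 FPKM in NS-DADm and 168 ± 7.7 FPKM in WT, and Orai3, a channel of this entry, at 13.5 ± 0.91 FPKM in NS-DADm and 13.5 ± 1.5 FPKM in WT. Of 9 genes of mitochondrial calcium handling, the most abundant were Smdt1, a subunit of the uniporter, and Micu2, its gatekeeper. Smdt1 stood at 186 ± 13.0 FPKM in NS-DADm and 198 ± 9.8 FPKM in WT, and Micu2 at 49.7 ± 1.3 FPKM in NS-DADm and 55.8 ± 2.2 FPKM in WT. None of these was called. Of the 69 genes, 10 had levels too low to test, among them Ryr1, Fkbp1b, Atp2b2 and Slc8a3, and Strit1 was not matched.

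**Figure D4:**
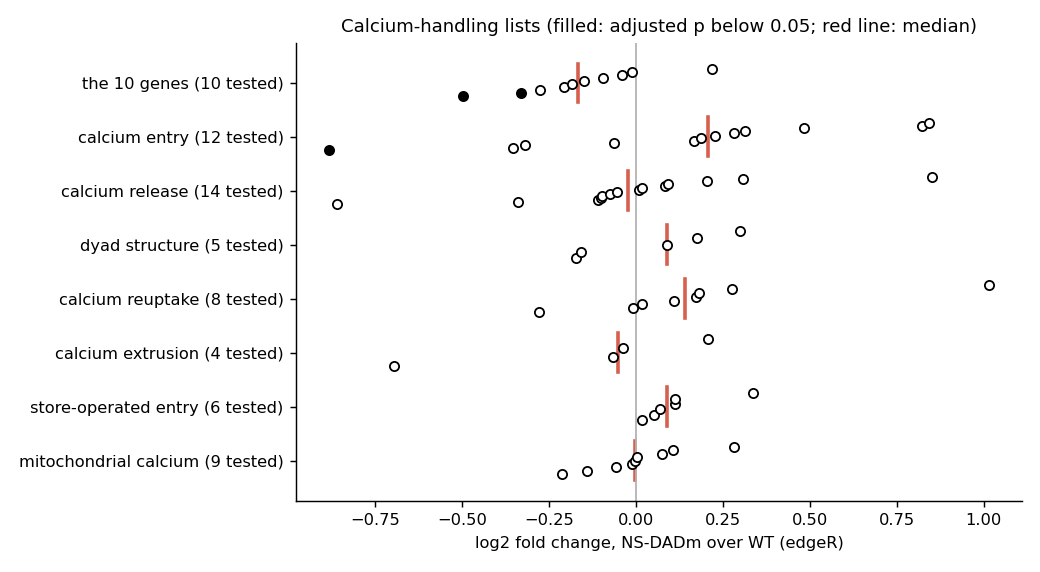
Log2 fold change, NS-DADm over WT from edgeR (x axis), of each tested gene of the 10 and of the 7 further lists by role (y axis), 1 point per gene, with the median as a red line. Filled points passed the test: Hrc, Cacna2d1 and, in calcium entry, Cacna1g at -0.88. The median of the 10 genes is -0.17 and that of store-operated entry 0.09.

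The genes whose profile over the 6 libraries lay nearest to the genes that fell are given as a description. The measure was the root mean square difference in log2 CPM after each gene's own mean was subtracted, among 11613 other tested genes whose FPKM averaged 1 or more. For Hrc the nearest were Mllt4, Morf4l1b and Cers4, at 0.060, 0.063 and 0.064. For Cacna2d1 they were Isoc1, Shroom4 and Vbp1, at 0.033, 0.041 and 0.042. The symbol Morf4l1b belongs to a copy of Morf4l1, so its level may depend on how reads were assigned. Mllt4 stood at 9.37 FPKM in NS-DADm and 12.8 FPKM in WT, and Isoc1 at 20.1 FPKM in NS-DADm and 25.3 FPKM in WT. Both were picked for a profile like that of a gene that fell, so their lower levels in NS-DADm follow from the choice.

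**Figure D5:**
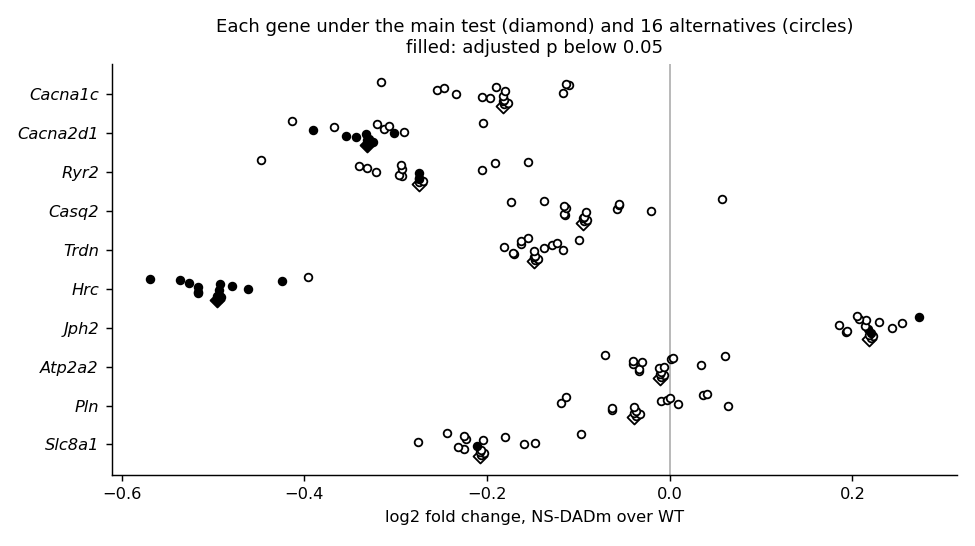
Log2 fold change, NS-DADm over WT (x axis), of each gene under the main test (diamond) and 16 alternatives of processing or of libraries (circles), filled where the adjusted p was under 0.05. Hrc was called in 15 of its 16 alternatives and Cacna2d1 in 9, Jph2 stayed between 0.19 and 0.27, and Atp2a2 and Pln fell on both sides of 0.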

How the data were processed

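RNA from the myocardium of 3 NS-DADm and 3 WT samples was sequenced, with 1 gene table and 1 transcript table per library. The authors deposited expected counts (estimated reads per gene or transcript) and FPKM (that count scaled by length and library size), per the file headers. HISAT is named in the submitters' processing notes with no version. Estimator, genome build and annotation were not given in the sources used here. Features are listed from an FPKM of 0.01 in the tables, so a gene not listed in a library was taken as 0. The 1 row without a symbol, with at most 0.000321% of a library's counts, was left out. No 2 libraries were duplicates (chi-square per degree of freedom of their counts 3.37 to 16.97). A count of 3 for a 1 kilobase feature equals 0.235 to 0.295 FPKM, a limit of counting error only.

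Expected counts were rounded. Genes were filtered with filterByExpr, scaled by TMM and tested by quasi-likelihood in edgeR 4.0.16 (R 4.3.3), with Benjamini-Hochberg adjustment over all tested genes and a threshold of 0.05. Transcripts were tested likewise. Standard errors came from the fold change and the F statistic, and 95% intervals from the t distribution with the test's degrees of freedom. The biological coefficient of variation was 0.106. Shares of a gene's counts held by its leading transcript were compared by exact permutation. The 10 genes, the gene lists and the tests were chosen with earlier results of these data known. Named genes are the 10, the called genes of the pathway list, the 2 most abundant of each of its sublists, and the 3 nearest profiles of each called gene of the 10; Sln, Ryr1, Fkbp1b, Atp2b2, Slc8a3, Myl7, Myl4, Bmp10 and Mybpc3 were named after their values were seen or as markers. Alternatives were DESeq2 size factors, no filter, a mean FPKM of at least 1, DESeq2's Wald test (1.42.0), limma (3.58.1) on log2(FPKM + 1) and log2(FPKM + 0.1), a replicate block, an atrial score (Myl7, Myl4, Sln, Bmp10) as a covariate and leaving out each library. Fits restricted to the low or the high atrial score libraries were added after the data were seen. On simulated counts with 200 changed genes over 13010 genes, 58.5% of genes changed 1.5-fold were called, and 81.8% at 2-fold, with 7.02% of calls false. Over 16597 transcripts, 4.76% were called at 1.5-fold and 17.1% at 2-fold, with 9.26% of calls false.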

Additional observations from a re-analysis of the deposited data

How the results depend on the processing

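Hrc and Cacna2d1 kept a negative fold change under all 16 alternatives run. Hrc was called in 15 of them, the exception being the 3 libraries of high atrial score (log2 fold change -0.40). Cacna2d1 was called in 9 of the 16. Of the 10 genes, 4 were called with DESeq2's test, which called 537 of all genes, 0 in the libraries of high atrial score, where 0 of all genes were called, and 1 to 2 without single libraries. In the libraries of low atrial score Jph2 was called (adjusted p = 0.0214). Replicate numbers 1 to 3 recur in both groups with no pairing stated. Same-numbered libraries correlated at -0.05, 0.33 and 0.398 for numbers 1, 2 and 3 in their deviations from the group means. Differently numbered libraries correlated at -0.439 to 0.19. Libraries of number 2 and of number 3 thus correlated best with their own number, while NS-DADm 1 and WT 1 did not. The deviations of 3 libraries sum to 0 within a group, so these values cannot settle whether the numbers pair the libraries. The atrial score had the same pattern. It was low in NS-DADm 2 and WT 2 (-1.79 and -3.99) and high in NS-DADm 3 and WT 3 (3.04 and 2.60). In NS-DADm 1 and WT 1 it differed (2.45 and -2.30). Pairing and atrial content cannot be told apart here. With a replicate block 5 of the 10 genes, 3 of the pathway list and 895 of all genes were called, against 2, 1 and 420 without it. The block added Ryr2, Jph2 and Slc8a1 to the called genes (adjusted p = 0.0103, 0.0359 and 0.0486, edgeR).

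The number of pathway genes called was 2 without a low-count filter, with a mean FPKM of at least 1, with DESeq2's test or with the atrial covariate, 0 with limma at a pseudocount of 1 or 0.1, and 0 to 2 without single libraries. Of all genes, 272 and 267 were called with limma on these scales and 117 to 382 without single libraries. DESeq2's test called 2 transcripts of the 10 genes.

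Values near 0 changed sign, and the cause was not tested. Without single libraries, log2 fold changes ran from -0.04 to 0.034 for Atp2a2 (its 4353-base model -0.048 to 0.031), -0.119 to 0.009 for Pln (its 2353-base model -0.118 to 0.018), -0.133 to 0.012 for Cacnb2, -0.044 to 0.056 for Tmem38a, -0.086 to 0.044 for Hspb6 and -0.071 to 0.105 for Orai3, and the Jph2 leading share difference from -0.31 to 0.83 percentage points. With the atrial covariate Pln was at 0.064, Cacnb2 at 0.008 and Hspb6 at 0.061. With limma at either pseudocount Tmem38a was at -0.01 and Orai3 at -0.003. In libraries of low atrial score Atp2a2 was at 0.061 and Pln at 0.037, and in those of high score Pln was at 0.041 and Casq2 at 0.057. No fold below 1.5 was simulated, so recovery at the smaller differences seen here is not known.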
